A study of Mus musculus with 6 samples.

Results

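Genes of potassium and voltage-gated sodium channels were examined in RNA sequencing counts from mouse pancreatic islets. Members were all genes of the deposited table whose symbol begins with KCN and a letter, or is SCN followed by a number and A or B. This rule found 54 genes of 13702 listed, and 6 of them had at least 20 counts over the 6 libraries and were compared between genotypes. The islets came from 12-week-old mice, 3 libraries from β-PCKO mice, called KO here, and 3 from their wild-type (WT) littermates. The series title names pyruvate carboxylase, which turns pyruvate into oxaloacetate in mitochondria, as its subject. The sources used here do not give the line that drives the deletion, the strain or any pooling of animals.

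Potassium channels let potassium leave the cell and hold or restore the negative resting potential, while voltage-gated sodium channels carry the fast inward current that starts an action potential. In the β-cell, a rise in ATP closes the ATP-sensitive potassium channel, the membrane depolarises, and voltage-gated calcium channels open and trigger insulin secretion. Voltage-gated and calcium-activated potassium channels then repolarise the membrane. Sodium channels shape the action potentials of islet cells, and in mouse islets Scn9a and Scn3a are the best known pore genes.

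Several facts about the libraries bear on every value below. The table names genes by human identifiers and symbols although the samples are labelled mouse, and the sources used here do not say how reads reached these names. Each of the 54 symbols also names a mouse gene when case is ignored. Total counts were 35906, 377876 and 135441 in WT replicates 1 to 3, and 224898 to 225561 in KO. The KO libraries were close to identical, with a chi-square per degree of freedom of 1.96 to 2.02 between pairs (1 at sampling noise), against 16.5 to 35.1 between WT pairs. Markers of squamous epithelium (25 of 25 listed) took 20.2% of counts in WT replicate 2 and at most 0.216% elsewhere, and connective tissue markers (17 of 20 listed) took 1.36% in WT replicate 3 and 0.105% to 0.468% elsewhere. The labelled tissue could be checked only in part. Of 35 endocrine islet markers 19 were listed, the hormone genes INS, GCG and SST were not, and CHGA and CHGB each had 1 count, in WT replicate 2. Pyruvate carboxylase (PC) had 4 counts in WT replicate 2 and 0 in the other 5 libraries, so the targeted gene did not check the labels.

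The channel genes that gave the most reads are shown first by their promoters. The windows below hold 250 bases before and 50 after the annotated start of the mouse genes Kcnma1 (chr14:24004156-24004455, minus strand) and Scn9a (chr2:66634913-66635212, minus strand), from RefSeq on build GRCm38.p6. They are shown because KCNMA1 was the deepest channel gene and SCN9A the one that passed the test. Capitals mark the GC box, GGGCGG on either strand.
Kcnma1: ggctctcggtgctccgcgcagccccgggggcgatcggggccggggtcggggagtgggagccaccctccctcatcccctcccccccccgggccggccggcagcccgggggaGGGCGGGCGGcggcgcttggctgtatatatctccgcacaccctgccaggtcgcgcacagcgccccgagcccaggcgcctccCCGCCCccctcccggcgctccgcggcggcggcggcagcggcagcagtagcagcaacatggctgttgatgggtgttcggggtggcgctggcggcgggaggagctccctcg
Scn9a: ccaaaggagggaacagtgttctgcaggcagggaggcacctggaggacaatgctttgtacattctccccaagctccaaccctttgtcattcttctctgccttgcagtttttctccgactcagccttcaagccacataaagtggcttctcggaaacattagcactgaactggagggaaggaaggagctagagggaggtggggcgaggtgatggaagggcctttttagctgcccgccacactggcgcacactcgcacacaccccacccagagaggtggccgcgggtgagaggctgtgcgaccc
The Kcnma1 window held 3 GC boxes, of which the first 2 share bases, and its G and C content was 78.0%, against a median of 52.7% over 32851 windows of the same length. The Scn9a window held no GC box (0) and had a G and C content of 57.3%. A GC box occurred in 35.7% of all windows. The TATA box TATAAA, in 13.6% of all windows, and the cAMP response element TGACGTCA, in 1.79%, were in neither window on either strand. These matches describe letters in the mouse reference and are not binding sites shown by these data. Of the 6 compared genes, 5 had a window in this table.

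Few channel genes reached a usable depth, and 1 gene held most of the reads. At least 20 counts were reached by 11.1% of the channel genes and by 41.2% of all listed genes. Of 1652 counts over all members and libraries, KCNMA1 had 71.8%. A total of 14 of the 54 members had more than 10 counts, and 16 had a single count. The summed channel counts were 50, 174 and 128 in WT replicates 1 to 3 and 434, 409 and 457 in KO replicates 1 to 3. As a share of all counts, in CPM (counts scaled to a common library total), this was 1393, 460 and 945 CPM in WT and 1924, 1817 and 2032 CPM in KO. Every KO library was above every WT library. Without KCNMA1 the same sums were 446, 326 and 598 CPM in WT and 319, 409 and 365 CPM in KO, and the genotypes overlapped.

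**Figure D1:**
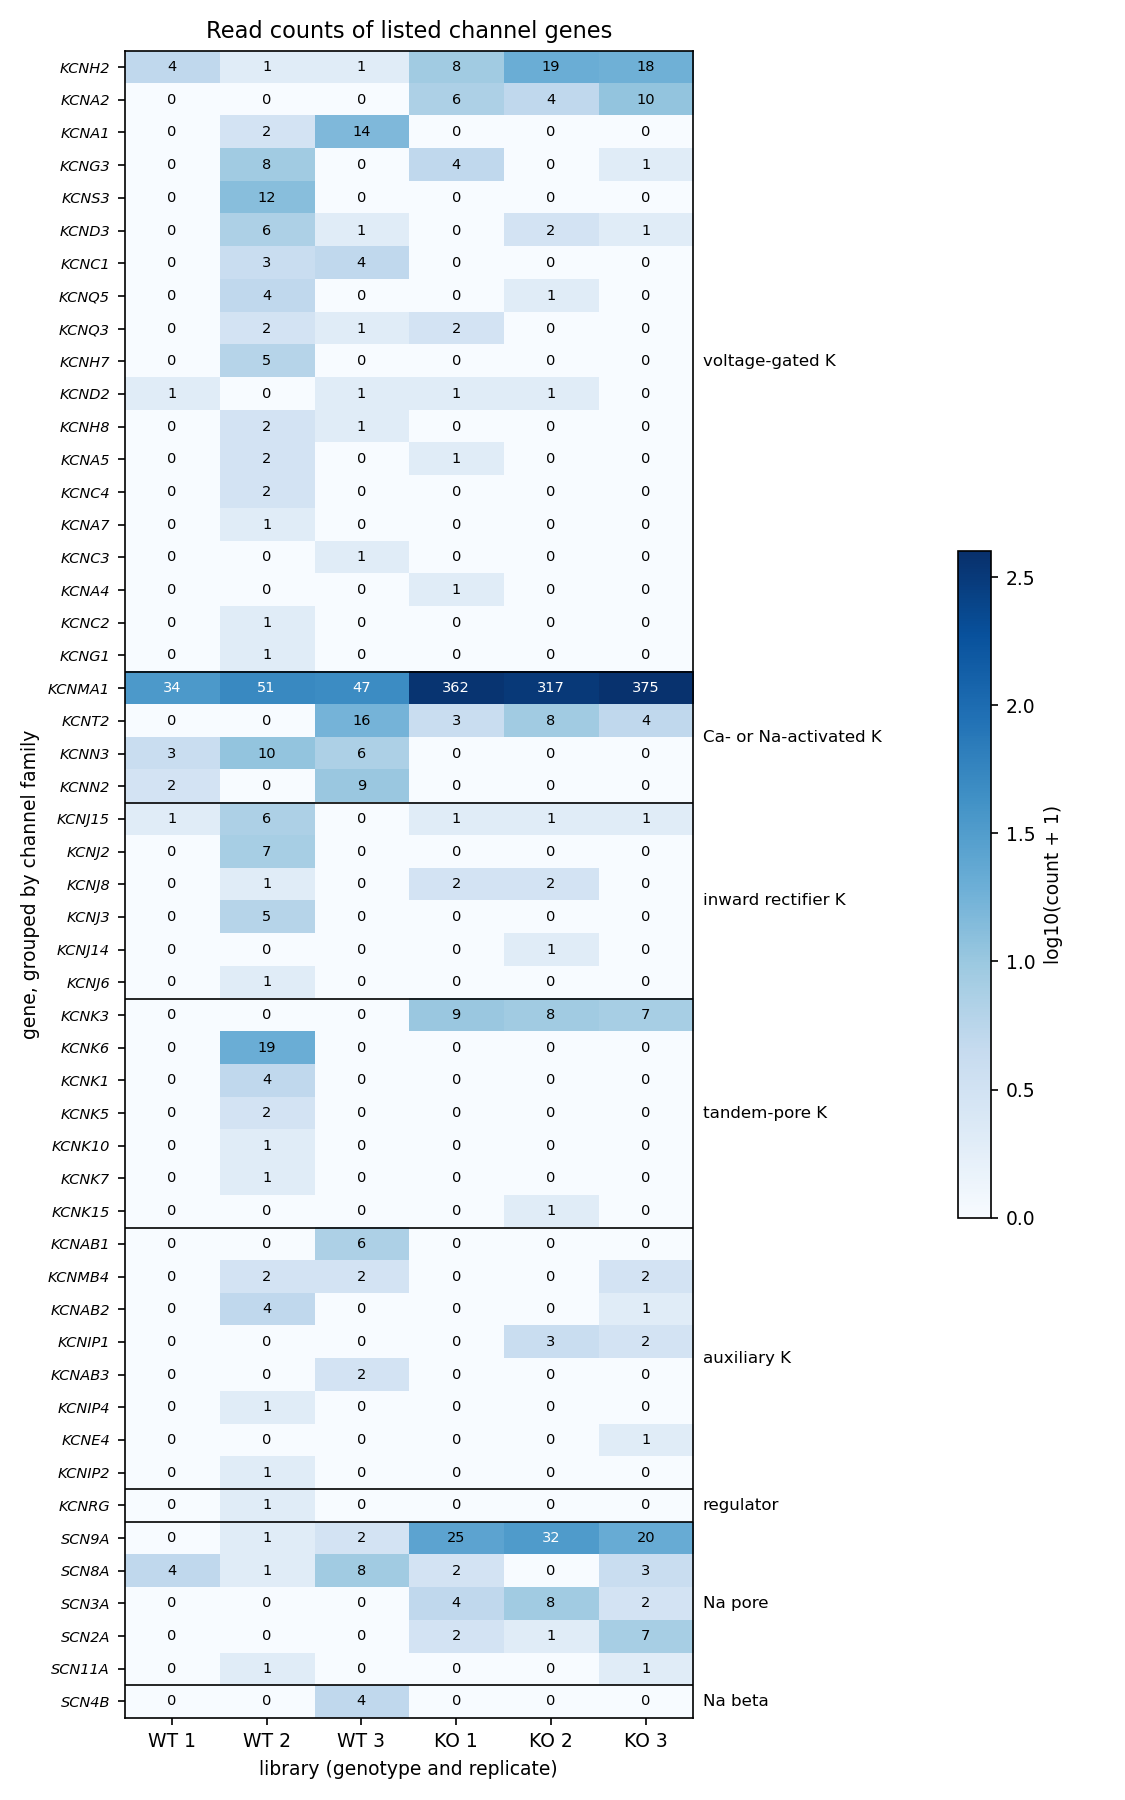
Read counts of 51 of the 54 listed channel genes (rows, grouped by channel family) in the 6 libraries (columns), with colour on a log10(count + 1) scale and the count in each cell. KCNMA1 is the darkest row, at 317 to 375 counts in KO and 34 to 51 in WT, and most other rows hold counts in 1 or 2 libraries.

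The number of channel genes detected varied most among the WT libraries. Of the 54 members, 8, 37 and 19 had at least 1 count in WT replicates 1 to 3, and 16 to 18 in the KO libraries. For all listed genes the detected share was 24.0%, 89.0% and 60.6% in WT, against 14.8%, 68.5% and 35.2% for the channel genes. Counts came from WT libraries alone for 28 members, of which 19 were seen in WT replicate 2 only and 4 in WT replicate 3 only. A further 9 members had counts in KO libraries alone. Over all listed genes 26.9% had counts in WT alone and 5.04% in KO alone, against 51.9% and 16.7% of the channel genes. The channel genes were shallower than the listed genes as a whole, and the part of depth in these shares was not tested. A count of 0, bounded at 3 counts, allows up to 83.6 CPM of the library total in WT replicate 1 and 7.94 in WT replicate 2. The same bound, which covers counting error only, is 22.1 in WT replicate 3 and 13.3 in each KO library.

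Of the 6 compared channel genes, SCN9A rose in KO islets and the other 5 did not pass the test. The test was edgeR's quasi-likelihood test with Benjamini-Hochberg adjustment over all 5641 genes with at least 20 counts. It called 170 genes higher in KO, 3.01% of those tested, and 4 genes lower, 0.0709%. None (0) of the 6 was lower in KO at the adjusted threshold in edgeR, DESeq2 or limma-voom, or at an unadjusted p under 0.05 in edgeR, where 8.72% of all tested genes were lower. Of the same 6, DESeq2 called SCN9A higher, and limma-voom called SCN9A, KCNMA1 (adjusted p 0.00836), KCNH2 (0.0477) and KCNK3 (0.0311). Over all 5641 genes tested, DESeq2 called 180 higher and 115 lower, and limma-voom called 666 higher and 11 lower. For 4 of the 6, every KO library was above every WT library on the scaled level, as for 22.3% of all tested genes. SCN9A, KCNH2, KCNK3 and KCNA2 passed the depth limit only through KO, since each had fewer than 20 counts over WT, so their direction is no observation independent of the limit, and of the 4 without overlap this leaves KCNMA1. The lowest members inside the limit were KCNA2 with 20 counts and KCNK3 with 24, and the first outside it were KCNK6 and KCNN3 with 19 each.

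**Figure D2:**
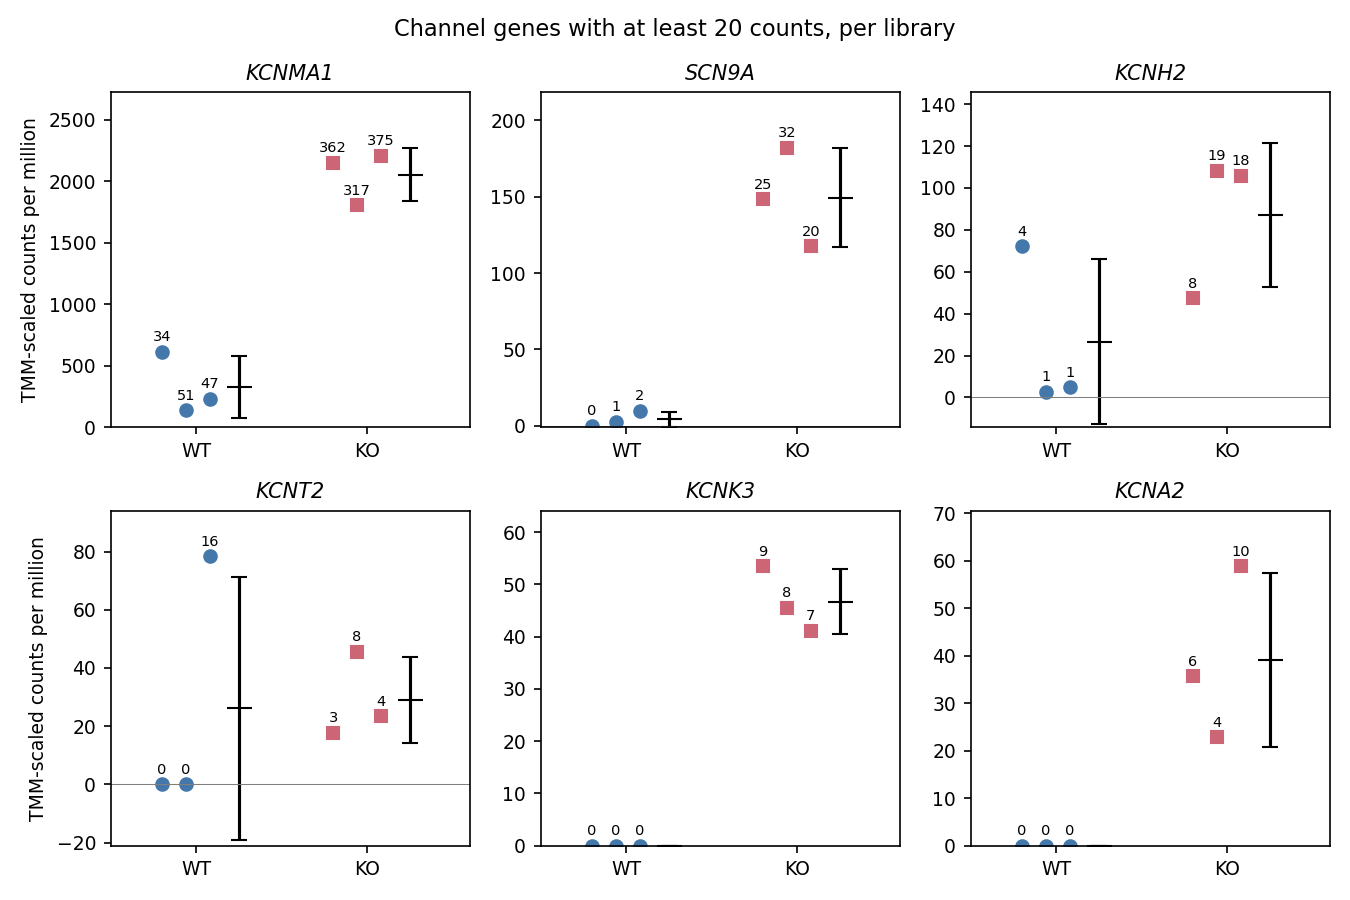
Level of the 6 compared channel genes in each library, in CPM scaled by the trimmed mean of M values (TMM), with the raw count above each point (circles WT, squares KO) and the mean ± SD (n = 3) beside them. SCN9A, KCNMA1, KCNK3 and KCNA2 have no overlap between genotypes, while KCNH2 and KCNT2 overlap through WT replicate 1 and WT replicate 3.

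Among the sodium channel pore genes, SCN9A (ENSG00000169432) carried most of the reads. It encodes Nav1.7, a pore subunit known from pain-sensing neurons and from islet cells. Counts were 0, 1 and 2 in WT replicates 1 to 3 and 25, 32 and 20 in KO replicates 1 to 3. On the scaled level this was 0, 2.71 and 9.80 CPM in WT and 148, 182 and 118 CPM in KO. All KO libraries stood well above all WT libraries, and the WT values rest on 3 reads. The means were 149 ± 32.3 CPM in KO and 4.17 ± 5.06 CPM in WT (SD, n = 3 each). The ratio of summed counts per scaled library size was 31.4 (95% interval 10.3 to 155, counting error only), and edgeR gave a log2 fold change of 4.75 ± 1.02 (SE; adjusted p 0.0347).

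The SCN9A call held in 9 of 16 alternative fits. Its direction was the same in all 16, but these fits reuse the same reads. Since SCN9A passed the depth limit only through KO, the unchanged direction is no separate support. Leaving out KO replicate 1, 2 or 3 ended the call in edgeR, with adjusted p of 0.218, 0.205 and 0.154. Library totals and DESeq2's size factors in place of TMM also ended it (adjusted p 0.073 and 0.109), and after pooling the KO columns into 1 library it stood at 0.824. In edgeR against WT replicate 1 alone, where SCN9A had 0 counts, the adjusted p was 0.0519. Bounded at 3 counts, the 0 of WT replicate 1 allows up to 54.1 CPM on the scaled level, below the 118 to 182 CPM of KO. As a share of library totals the same bound is 83.6 CPM, against 88.9 to 142 CPM in KO. The exact upper 95% limit of that share is 103 CPM, above KO replicate 3 at 88.9 CPM (95% interval 54.3 to 137). On this scale WT replicate 1 and KO replicate 3 were thus not separated.

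The other sodium channel genes described here were too shallow to be compared. SCN3A, which encodes the Nav1.3 pore known to carry sodium current in mouse β-cells, had 4, 8 and 2 counts in KO replicates 1 to 3 and none (0) in any WT library. SCN2A, a pore gene of central neurons, had 2, 1 and 7 counts in KO and 0 in WT. Against 3 counts over the WT group, SCN3A was at least 5.70-fold and SCN2A at least 4.07-fold higher in KO, and in the edgeR fit without a depth limit their adjusted p were 0.125 and 0.216. SCN8A, which encodes Nav1.6 of axon initial segments, pointed the other way, with 4, 1 and 8 counts in WT and 2, 0 and 3 in KO, and its genotypes overlapped. SCN11A had 1 count in WT replicate 2 and 1 in KO replicate 3. The β-subunit gene SCN4B, whose protein modifies gating of the pore, had 4 counts, all in WT replicate 3. SCN2A, SCN3A and SCN9A are related genes with similar coding sequence, and the division of reads among them is uncertain.

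KCNMA1 (ENSG00000156113) was the only potassium channel gene with more than 100 counts. It encodes the pore of the large-conductance calcium-activated BK channel, which repolarises β-cells and neurons when voltage and calcium rise together. Counts were 34, 51 and 47 in WT replicates 1 to 3 and 362, 317 and 375 in KO replicates 1 to 3. The WT counts lay close together although the totals of these libraries differed widely. On the scaled level KCNMA1 stood at 613, 138 and 230 CPM in WT and at 2150.0, 1805 and 2204 CPM in KO. Every KO library was above every WT library, and WT replicate 1 was the WT library nearest to KO. The means were 2053 ± 217 CPM in KO and 327 ± 252 CPM in WT (SD, n = 3 each), and edgeR gave a log2 fold change of 2.69 ± 0.69 (SE; adjusted p 0.0578).

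How far KCNMA1 stood apart depended on the WT library it was set against. As a share of all counts, KO pooled was 1.65 times WT replicate 1 (95% interval 1.17 to 2.39), 11.6 times WT replicate 2 (8.73 to 15.6) and 4.50 times WT replicate 3 (3.36 to 6.16). In an edgeR fit of KO against WT replicate 1 alone, its log2 fold change was 0.75 (adjusted p 0.0351), while the median over all genes tested was 0.86. Relative to the typical gene of that fit, KCNMA1 was therefore not higher in KO. Without WT replicate 1 the log2 fold change was 3.48 with an adjusted p of 0.00435 in edgeR, and without WT replicate 2 it was 1.65 with an adjusted p of 0.177. KCNMA1 was called in 4 of 16 alternatives, these being limma-voom (0.00836), the replicate block (0.0179) and the edgeR fits without WT replicate 1 and against it alone.

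Within WT, the summed markers of endocrine cells and of neurons stood in the same order of libraries as KCNMA1, though single markers did not all do so. The 19 listed endocrine islet markers summed to 0.627%, 0.0352% and 0.207% of counts in WT replicates 1 to 3 and to 0.491% to 0.540% in KO. The 8 listed of 18 neuron markers summed to 0.326%, 0.0254% and 0.117% in WT and to 0.255% to 0.306% in KO. Both sums were highest in WT replicate 1 and lowest in WT replicate 2. PAX6 and INSM1 gave 98 and 100 of the endocrine counts of WT replicate 1. CPE went the other way, at 0, 46.1 and 632 CPM on the scaled level in WT replicates 1 to 3, as did the neuron marker SYT1 at 0, 13.6 and 83.3 CPM, and PCSK1 was seen in WT replicate 3 alone. RBFOX3 and GAD1, both on the neuron list, had 1 count each, in WT replicate 1. Listed markers of the anterior pituitary (6 of 16), in KO all from the growth hormone gene GH1, took 3.16% to 3.23% of counts in KO and at most 0.0336% in WT. The part of these markers in the channel values was not tested. In bulk tissue, fewer cells of a type and less RNA per cell cannot be told apart.

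KCNH2, the only gene of the voltage-gated potassium family with more than 20 counts, had overlapping genotypes. KCNH2 (ENSG00000055118) encodes the HERG channel, which repolarises heart muscle and also works in islet cells. It had 4, 1 and 1 counts in WT and 8, 19 and 18 in KO, or 72.1, 2.71 and 4.90 CPM against 47.5, 108 and 106 CPM. WT replicate 1 lay above KO replicate 1. In edgeR the log2 fold change reached 2.26 ± 1.25 (SE; adjusted p 0.295). It was called in 2 of 16 alternatives, limma-voom (adjusted p 0.0477) and edgeR without WT replicate 1 (4.40, adjusted p 0.0183), and turned to −0.71 against WT replicate 1 alone, with an adjusted p of 0.556.

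KCNA2 (ENSG00000177301), which encodes the Kv1.2 channel of axons, was seen in KO alone. It had 6, 4 and 10 counts in KO replicates 1 to 3 and none (0) in any WT library. Against 3 counts over the WT group it was at least 8.14-fold higher, with an adjusted p of 0.0875 in edgeR, and 0.0488 without WT replicate 1. Its close relative KCNA1, which encodes Kv1.1, had 0, 2 and 14 counts in WT and 0 in KO, at least 4.37-fold lower in KO. With 14 of its 16 counts in WT replicate 3, KCNA1 rested on that library. In the edgeR fit without a depth limit its adjusted p was 0.132. KCNA1 and KCNA2 have similar coding sequence, and reads may be divided between them.

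The remaining 17 listed voltage-gated genes had 1 to 13 counts each. KCNG3 and KCNS3, which encode silent subunits that work only with other pore subunits, had 8 and 12 counts in WT replicate 2. KCNG3 had 4, 0 and 1 counts in KO, where KCNS3 had 0. KCND3, an A-type current gene, had 0, 6 and 1 counts in WT and 0, 2 and 1 in KO, and KCNC1, of fast-spiking neurons, had 0, 3 and 4 in WT and 0 in KO. None of these genes could be compared at this depth.

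Among the tandem-pore-domain channels, which carry background potassium current, KCNK3 and KCNK6 were seen in opposite genotypes. KCNK3 (ENSG00000171303) encodes the acid-sensitive TASK-1 channel and had 9, 8 and 7 counts in KO replicates 1 to 3 and none (0) in any WT library. Against 3 counts over the WT group it was at least 9.77-fold higher in KO, and edgeR's adjusted p was 0.0714. It was called in 3 of 11 alternatives with a test, which were edgeR without a depth limit (adjusted p 0.0307) and without WT replicate 1 (0.0286), and limma-voom (0.0311), and the highest adjusted p was 0.791. KCNK6, which encodes TWIK-2, had 19 counts in WT replicate 2 and 0 in the other 5 libraries. The other members, KCNK1, KCNK5, KCNK7, KCNK10 and KCNK15, had 1 to 4 counts each, and 4 of them were also seen in WT replicate 2 alone. Squamous epithelial markers took 20.2% of counts in that library, and their part in these values was not tested.

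Of the other 3 listed calcium- or sodium-activated channels, KCNN3 and KCNN2 were seen in WT alone. KCNN3 (ENSG00000143603) encodes the small-conductance channel SK3, which opens with calcium and slows repetitive firing. It was counted 3, 10 and 6 times in WT replicates 1 to 3 and 0 times in each KO library, or 54.1, 27.1 and 29.4 CPM against 0. It was at least 5.18-fold lower in KO, taking 3 counts over the KO group, and was just outside the depth limit. In the edgeR fit without that limit its adjusted p was 0.0651. KCNN2, which encodes SK2, had 2, 0 and 9 counts in WT and 0 in KO. Computed in the same ways, it was 3.00-fold lower with an upper limit of 0.487 (adjusted p 0.150 in the same edgeR fit). KCNT2 (ENSG00000162687), which encodes the sodium-activated channel Slick, had 0, 0 and 16 counts in WT and 3, 8 and 4 in KO. All of its WT reads came from WT replicate 3. Its log2 fold change was 0.03 ± 1.47 (SE; adjusted p 0.991 in edgeR) and −1.08 without WT replicate 2.

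**Figure D3:**
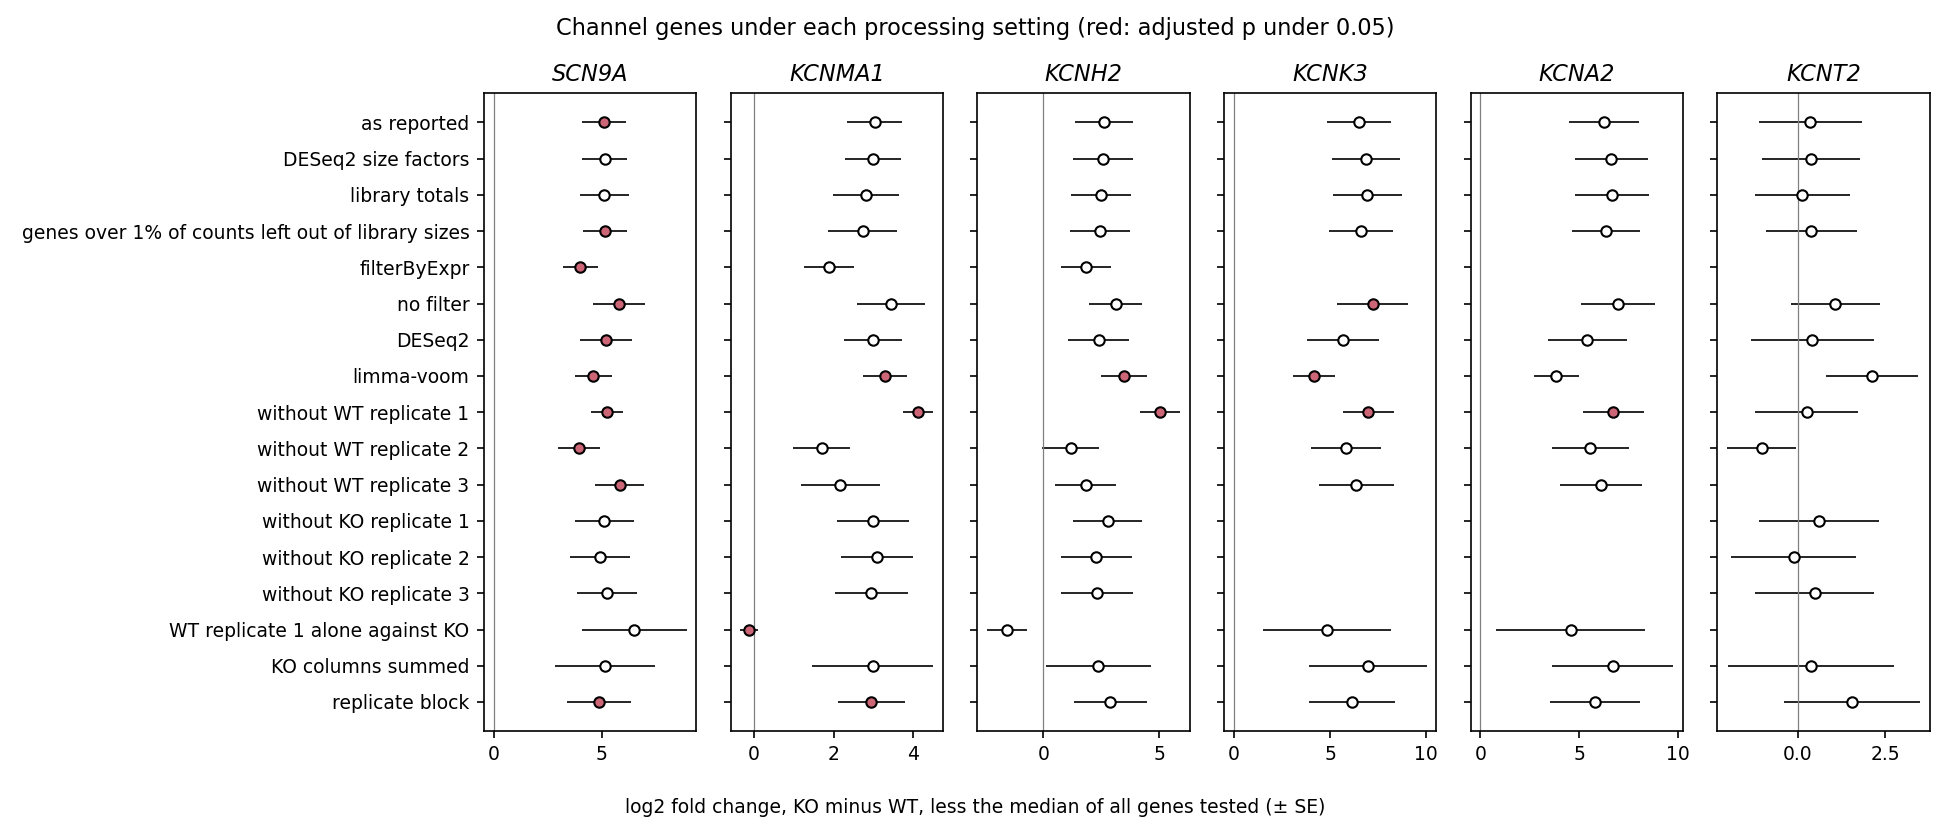
Log2 fold change (KO minus WT, ± SE, less the median over all genes tested in the same fit) of the 6 compared channel genes under the reported fit and 16 alternatives. Red points have an adjusted p under 0.05 for the fold change before the median is taken off, open points do not or have none, and an empty line is a fit without the gene. SCN9A lies above 3.9 throughout, while KCNMA1 and KCNH2 fall to −0.12 and −1.57 against WT replicate 1 alone. All fits reuse the same reads, and SCN9A passed the depth limit only through KO.

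Genes of the β-cell's ATP-sensitive potassium channel were out of reach. KCNJ11, whose product Kir6.2 forms its pore, was not listed, and ABCC8, the gene of its sulfonylurea receptor, had 1 count, in WT replicate 1. KCNJ8, which encodes the related vascular pore Kir6.1, had 1 count in WT replicate 2 and 2, 2 and 0 in KO. The other listed inward rectifier genes were KCNJ2, KCNJ3, KCNJ6, KCNJ14 and KCNJ15, with 1 to 10 counts each. KCNJ15 had 1, 6 and 0 counts in WT and 1 in each KO library, and KCNJ2 had its 7 counts in WT replicate 2. Of 19 channel genes known in islet cells that were set for reporting at any depth, 11 were listed. The 8 not listed were KCNJ11, KCNB2, KCNQ1, KCNH6, KCNN4, KCNK16, KCNMB2 and SCN3B, and they have no value here.

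Auxiliary potassium channel genes had 1 to 6 counts each. KCNMB4, the neuronal β-subunit gene of the BK channel, had 0, 2 and 2 counts in WT and 0, 0 and 2 in KO. KCNAB1, whose product speeds inactivation of Kv1 channels, had 6 counts, all in WT replicate 3, and KCNAB2 had 4 in WT replicate 2 and 1 in KO replicate 3. KCNIP1, a calcium sensor gene of Kv4 channels, had 0, 3 and 2 counts in KO and 0 in WT. KCNRG, which encodes a regulator of Kv1 assembly and no channel, had 1 count in WT replicate 2. None of these genes was deep enough to be compared.

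Among other genes of potassium and sodium conductance, a partner of the sodium leak channel was called higher in KO. Of 49 genes on this list, 30 were listed and 11 tested, and 1 rose, none fell (0) and 10 did not pass in edgeR. At an unadjusted p under 0.05 in edgeR 2 were higher and 1 lower, DESeq2 called 1 higher and 1 lower, and limma-voom called 3 higher and 0 lower. The background share of genes called higher in the reported edgeR fit is the 3.01% given above. Over all 5641 genes tested, DESeq2 called 180 higher and 115 lower, and limma-voom 666 higher and 11 lower. At an unadjusted p under 0.05 in edgeR 8.72% of all tested genes were lower, and the share higher is not given here. The median log2 fold change of the 11 was 1.47, against −0.34 over all tested genes. FAM155A (ENSG00000204442), also named NALF1, encodes a subunit of the NALCN channel complex. It had 0, 0 and 1 counts in WT and 48, 47 and 55 in KO, or 1.63 ± 2.83 CPM against 292 ± 28.5 CPM (SD, n = 3). All KO libraries were far above all WT libraries. FAM155A passed the depth limit only through KO, so its direction is no observation independent of the limit. The median of the 11 includes FAM155A and was not computed without members that passed in this way. The ratio of summed counts was 183 (95% interval 32.4 to 7286, counting error only), and edgeR gave a log2 fold change of 6.95 ± 1.08 (SE; adjusted p 0.0118). Its call held in 11 of 16 alternatives. Without KO replicate 1, 2 or 3 the adjusted p was 0.106, 0.0735 and 0.057, and with DESeq2's size factors it was 0.0543. Summing the KO columns also ended the call, at a log2 fold change of 7.27.

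The other genes of the sodium leak channel complex had reads in both genotypes and did not pass. NALCN itself, UNC79 and UNC80 form with FAM155A the channel that lets a steady sodium current into resting neurons and islet cells. UNC79 had 13, 12 and 21 counts in WT and 103, 124 and 116 in KO, with a log2 fold change of 2.54 ± 0.74 (SE; adjusted p 0.0785 in edgeR). Every KO library was above every WT library for UNC79. It was called in 3 of 16 alternatives, with the replicate block (adjusted p 0.0363), with limma-voom (0.0134) and in edgeR without WT replicate 1 (log2 fold change 3.33, adjusted p 0.0113). Leaving out WT replicate 2 took its log2 fold change to 1.44. Set against WT replicate 1 alone it was 0.51, which is −0.35 relative to the median gene of that fit. UNC80 had 54, 5 and 24 counts in WT and 188, 155 and 155 in KO, or 974, 13.6 and 118 CPM against 1117, 882 and 911 CPM, so that WT replicate 1 lay within the KO values (adjusted p 0.420 in edgeR). NALCN had 0, 1 and 7 counts in WT and 9, 11 and 7 in KO (adjusted p 0.358). NALCN and UNC80 are named because they complete the complex and were chosen after their values were seen.

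**Figure D4:**
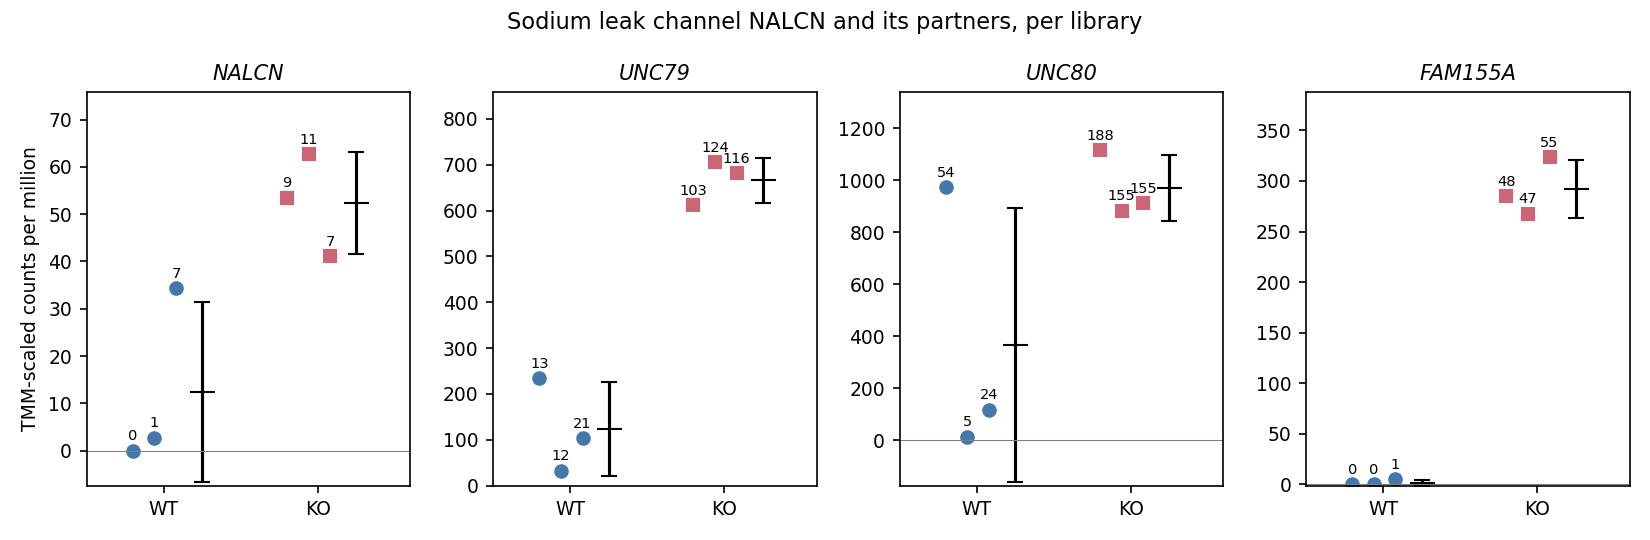
Level of the sodium leak channel gene NALCN and its partner genes UNC79, UNC80 and FAM155A in each library, in TMM-scaled CPM, with raw counts above the points (circles WT, squares KO) and the mean ± SD (n = 3). FAM155A has 1 WT count and 47 to 55 counts per KO library, whereas WT replicate 1 lies among the KO values for UNC80.

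Pump, anion channel and partner genes gave no call in the reported edgeR fit, and some were called in its alternatives. LRRC8A, which encodes a subunit of the volume-regulated anion channel and so carries neither potassium nor sodium current, had 15, 33 and 3 counts in WT and 1, 2 and 3 in KO (adjusted p 0.131 in edgeR). It was called lower in 4 of 15 alternatives, which were DESeq2 (0.0213) and edgeR against WT replicate 1 alone (0.00079), with no depth limit (0.0357) and without WT replicate 3 (0.0171). The sodium pump gene ATP1B1 had a log2 fold change of 0.29 ± 0.82 (SE). Of 40 channel partner and anchor genes, 27 were listed and 13 tested, and none (0) passed in edgeR. At an unadjusted p under 0.05 in edgeR 4 were higher and 1 lower, DESeq2 called 1 lower and limma-voom 4 higher. Over all 5641 genes tested, DESeq2 called 115 lower and limma-voom 666 higher. In edgeR 8.72% of all tested genes were lower at an unadjusted p under 0.05, and the share higher is not given here. The median log2 fold change of the 13 was 0.29. The smallest p were those of VAPA, a membrane anchor of the endoplasmic reticulum, and of CALM2, 1 of the calmodulin genes. VAPA had 25, 101 and 57 counts in WT and 258, 187 and 203 in KO (adjusted p 0.0807), and CALM2 had 80, 199 and 151 against 676, 700 and 633 (0.082). VAPA was called in 2 of 16 alternatives, edgeR without WT replicate 1 (0.00757) and limma-voom (0.0214), and CALM2 in these (0.00447 and 0.0125) and in edgeR against WT replicate 1 alone (0.039). In that last fit both stood below the median gene, at −0.37 and −0.42 on the log2 scale. Calmodulin genes encode the same protein from similar sequences, and the division of reads among them is uncertain.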

How the data were processed

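The deposited table, made by the authors, holds whole-number read counts per gene, which per the file headers are not normalized. Ribosomal RNA was removed from total RNA before strand-marking, paired-read library preparation, per the labels' protocols. The submitters' processing notes list the tools edgeR 3.16.5, HTSeq 0.9.1, HISAT2 2.0.4 and cutadapt 1.9.3, and the build mm10, without saying what each did. The assignment of reads to human-named genes and the use of strand in counting are not stated in these sources, so overlapping and antisense genes cannot be told apart. The mouse gene name table holds none (0) of the identifiers. A further 6 per-sample columns of normalized values were not used, and 1 row without an identifier stayed out.

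Sample titles gave the group and the replicate number. Nothing in the labels says that libraries came from separate animals, so p-values reflect only how these libraries vary, and that spread may be technical. An exact permutation test of 3 against 3 cannot go below p = 0.1 and was not used. Genes with at least 20 counts over the 6 libraries entered the test (edgeR 4.0.16, R 4.3.3, TMM, two-sided quasi-likelihood F test on genotype, Benjamini-Hochberg at 0.05). CPM values are on TMM-scaled sizes, except where a share of all counts is given. Standard errors come from the F statistic. A group at 0 was set at 3 counts over the group, with the counts of the other group taken as exact. Folds from this floor are therefore not 95% limits. Intervals are exact Clopper-Pearson at 95%, and they and the floors cover counting error only. On simulated counts for 5641 genes, at the fitted dispersions, the test found 2% of 4-fold changes and 50% of 16-fold changes and made 54 calls, of which 2 were false. The simulation lacks the near-identical KO libraries, so these rates may not hold here.

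Alternatives were other scalings, filters, DESeq2 1.42.0, limma-voom (limma 3.58.1), leaving out libraries, summing the KO columns, the replicate number as a block, and other thresholds. The members, the gene lists and the choice of alternatives were made with earlier results of these data known. Full values are given for the 6 compared genes, 19 islet channel genes wherever listed (some genes are not reported here), and, of each of the 2 lists of other pathway genes, those called and the 2 with the smallest p. The replicate numbers were not taken as pairs in the reported fit. Deviations of same-numbered WT and KO libraries from their group means had correlations of 0.004 to 0.010. Because the KO libraries were close to identical, these correlations could not exclude pairing.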

Additional observations from a re-analysis of the deposited data

How the results depend on the processing

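The count of 1 channel gene higher in KO was 0 with DESeq2's size factors, library totals, the KO columns summed or a threshold of 0.01, 2 without a filter and with the replicate block, and 4 with limma-voom or a threshold of 0.1. It was 0 to 5 with single libraries left out: 5 without WT replicate 1 and 0 without any 1 KO library. The count of lower channel genes was 0 in each fit. Under the depth limit this was partly set in advance, since 4 of the 6 tested members passed it only through KO. KCNN3, KCNK6 and KCNA1, seen in WT alone, fell below that limit. All genes called (174) were 12, 25, 90, 439, 295, 677, 586, 0 and 293 with DESeq2's size factors, library totals, genes over 1% left out of sizes, no filter, DESeq2, limma-voom, WT replicate 1 alone, the KO columns summed and the replicate block, 514 and 9 at thresholds of 0.1 and 0.01, and 2 to 998 with single libraries left out. filterByExpr gave 206, of which 129 were higher and 77 lower, against 170 and 4. Other conductance and partner genes called (1) were 0, 3, 3, 7, 7, 0 and 4 with DESeq2's size factors, no filter, DESeq2, limma-voom, WT replicate 1 alone, the KO columns summed and the replicate block, 5 and 0 at thresholds of 0.1 and 0.01, and 0 to 10 with single libraries left out. With the replicate block, 2 channel genes passed, SCN9A (adjusted p 0.0288) and KCNMA1 (0.0179). The cause of these changes was not tested.

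Scaling moved the median log2 fold change of all tested genes from −0.34 to −1.04 with DESeq2's size factors and −1.05 with library totals. Relative to that median SCN9A was 5.09 higher on the log2 scale as reported and 3.93 to 6.49 over the alternatives, and KCNMA1 3.02 and −0.12 to 4.11. KCNT2 turned to −0.65, −0.91 and −0.10 with DESeq2's size factors, library totals and genes over 1% left out, and ran from −1.08 to 0.27 without a single library (negative without WT replicate 1, WT replicate 2 or KO replicate 2), and KCNH2 to −0.71 against WT replicate 1 alone. KCNK3 and KCNA2 fell under 20 counts without a KO library and under filterByExpr, and DESeq2 gave them and KCNT2 no adjusted p. Fits with WT replicate 1 alone or pooled KO columns compare 1 library with 3 and assume that the single library varies as the others do. Depth limited 48 of the 54 channel genes to under 20 counts.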
